A study of Mus musculus with 2 samples.

Results

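The mitosis genes described here are 44 named genes of cell division among the 31053 genes counted in the mouse eyecup. They were taken by symbol from a fixed list. No measured value entered that rule, but the list was chosen with earlier results of these data known. All 44 members were present in the count tables. The data are single-cell RNA-seq of eyecups, the embryonic eye with retina, lens and blood, at E13.5 of embryonic development. One library came from a control embryo (Six3+/-;Six6+/-), which itself carries heterozygous null alleles of both genes. The other library came from a double knockout embryo (DKO; Six3F/F;Six6-/-;a-Cre). In the DKO, Six6 is absent from the germline and Six3 is removed only where a-Cre is active, in the peripheral retina, so the library mixes Six3-deficient cells with cells of the central retina that retain Six3. Cre itself has no row in the count tables. With 1 library per genotype, no difference between control and DKO has a replicate check, and no p-value is given. All 95% intervals cover counting error only, and they treat UMIs as independent although UMIs of one cell are not.

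Mitosis is driven by cyclin-dependent kinase 1 (Cdk1) bound to cyclins, and it ends when the anaphase-promoting complex (APC/C) marks cyclins and other proteins for destruction. Between these points chromosomes condense, kinetochores attach to spindle microtubules, the spindle checkpoint holds anaphase until every chromosome is attached, and the cell divides by cytokinesis. In the embryonic retina, naive progenitors divide and self-renew, neurogenic progenitors approach or pass through their last division, and neurons have left the cell cycle. Most genes of mitosis are transcribed late in the cell cycle, and many of their promoters carry a cell cycle homology region (CHR) and CCAAT boxes.

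Promoter sequence was looked up for the members because it is a property that their choice did not use. RefSeq promoter windows of the GRCm38.p6 build, from 250 bases before to 50 bases after a gene's start, were given for 36 members in 38 windows. Ccna2, Cdc25c, Pimreg, Smc4, Tpx2, Aurkb, Kif20a and Dlgap5 had no entry. The CHR letters TTTGAA, searched on both strands, occurred in 28 of the 38 member windows (73.7%) and in 17.9% of all 32851 windows. The CCAAT letters, searched on both strands, occurred in 30 of the 38 (78.9%) and in 37.4% of all windows. Both runs together occurred in 24 member windows (63.2%) and in 6.95% of all windows. Counted per gene, the CHR letters were found for 27 of 36 members (75%), for 22 of 39 other G2/M genes with an entry (56.4%) and for 6 of 32 S phase genes (18.8%). The CCAAT letters set the members less apart from these lists. They were found for 28 of the 36 members (77.8%), 24 of the 39 other G2/M genes (61.5%) and 22 of the 32 S phase genes (68.8%). Of all genes 41.1% held them. The E2F letters (TTTCCCGC, TTTGGCGC, TTTCGCGC or TTTGCCGC, both strands) were found for 1 of the 36 members (2.78%), Cdk1, close to the 2.6% of all genes. They were found for 5 of the 39 other G2/M genes (12.8%) and for 13 of the 32 S phase genes (40.6%). The CHR and CCAAT letters do not overlap each other in sequence, and the 4 E2F runs are alternatives of one pattern.

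The 150 bases before the start are shown for 5 members whose window holds CHR letters there, so that the arrangement can be read. Capitals mark TTTGAA or its complement TTCAAA, and CCAAT or its complement ATTGG, and each line runs 5′ to 3′ along the gene's strand.
Cdk1, chr10:69352913-69353062, minus strand: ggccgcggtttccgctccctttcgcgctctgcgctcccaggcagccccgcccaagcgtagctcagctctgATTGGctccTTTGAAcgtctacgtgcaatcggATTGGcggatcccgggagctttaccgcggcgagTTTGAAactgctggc
Cdc20, chr4:118437344-118437493, minus strand: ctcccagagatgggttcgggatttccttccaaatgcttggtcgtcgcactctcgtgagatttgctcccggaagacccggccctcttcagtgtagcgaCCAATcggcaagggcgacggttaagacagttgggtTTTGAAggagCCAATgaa
Ube2c, chr2:164769779-164769928, plus strand: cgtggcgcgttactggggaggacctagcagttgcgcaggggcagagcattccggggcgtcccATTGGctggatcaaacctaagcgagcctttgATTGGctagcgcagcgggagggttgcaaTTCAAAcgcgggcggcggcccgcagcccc
Top2a, chr11:99024190-99024339, minus strand: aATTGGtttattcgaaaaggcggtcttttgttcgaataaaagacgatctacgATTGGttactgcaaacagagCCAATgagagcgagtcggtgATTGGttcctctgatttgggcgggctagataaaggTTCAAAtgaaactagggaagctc
Ckap2l, chr2:129297213-129297362, minus strand: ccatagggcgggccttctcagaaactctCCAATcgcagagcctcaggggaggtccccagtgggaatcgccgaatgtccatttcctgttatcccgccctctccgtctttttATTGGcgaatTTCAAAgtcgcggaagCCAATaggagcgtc
All 5 stretches end at the base before the gene's RefSeq start. The Cdk1 stretch held 2 CHR runs and 2 CCAAT runs, and the Top2a stretch held 1 CHR run and 4 CCAAT runs. In 24 of the 36 members (66.7%), against 5.72% of all genes in the table, a CHR run began within 50 bases of the start on either side. A run of letters is a description of the sequence, and its absence from these windows says nothing about a factor.

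The libraries held 10315 control and 12672 DKO cells, of which 9822 and 12146 passed the filters, with medians of 7620 and 5879 UMIs per cell. Levels are given as CPM, counts per 1000000 UMIs. Six6 stood at 377.6 CPM in control naive-like cells and at 43.2 in DKO naive-like cells, and Six3 stood at 308.9 and 234.2. Per the study the Six3 deletion removes exon 1, and in Six6 a drug-selection cassette stands in place of the homeodomain sequence, so these 3′ counts give the mRNA ends that remain and are no direct check of the deleted parts. Cells were grouped without use of the members or other cell cycle genes, and clusters were named from marker genes. Naive-like progenitors were clusters 0, 1 and 7 (3358 control and 3192 DKO cells), and neurogenic-like cells were clusters 4 and 6 (1526 and 1804). Margin-like cells, of the ciliary margin or pigment epithelium, were cluster 2 (837 and 1257), and neuron-like cells clusters 5 and 9 (934 and 2126). Of the 3 naive-like clusters, cluster 1 held the most control cells (1575) and cluster 0 the most DKO cells (1589), and cluster 7 was led by Lor, Tagln, Tnfrsf12a and other genes with early-response genes such as Fosl2 among them. Clusters 3 and 10 held 1211 control and 1428 DKO cells with low RNA content, with medians of 962.0 and 982.0 UMIs. To set both libraries at the same depth, 1000 UMIs were drawn at random from every cell, cells with fewer were left out, and member levels are CPM of the drawn UMIs. The counts are 3′ tags, so levels are not scaled by transcript length.

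As classes, naive-like and neurogenic-like cells were high in the members and neuron-like cells were low. Their summed level in the control library was 4097 CPM in naive-like cells (95% interval 4029 to 4166), 4938 in neurogenic-like cells (4827 to 5051) and 2846 in margin-like cells (2732 to 2962). In control neuron-like cells it was 345.1 (308.5 to 385.0). Cluster 9, led by Sncg and Nefl, held the lowest summed level among the control retinal clusters named here, 292.0. Neurons are the cell type here that should lack the members, and whether their UMIs come from free RNA was not tested. A control naive-like cell held a median of 3 member UMIs among its 1000, the 90th percentile was 10 and the highest was 33, and 23.6% of these cells held none. In control neuron-like cells 76.7% held none and the 90th percentile was 1.

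Within the neurogenic-like class the 2 clusters stood far apart. Cluster 6, led by Atoh7 and Gadd45a, had a summed member level of 9173 in control and 9851 in DKO, the highest of all retinal clusters in both libraries. Cluster 4, led by Gm14226, had 748.0 in control and 604.5 in DKO. Its leading genes also include Dlx1, which the study uses as a ganglion cell marker, and Ebf2. The share of cells with 5 or more member UMIs was 72.6% and 72.8% in cluster 6 and 3.66% and 1.92% in cluster 4. The other lists stood apart in the same way, with the S phase genes at 6788 in cluster 6 and 1602 in cluster 4 of the control library.

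**Figure D1:**
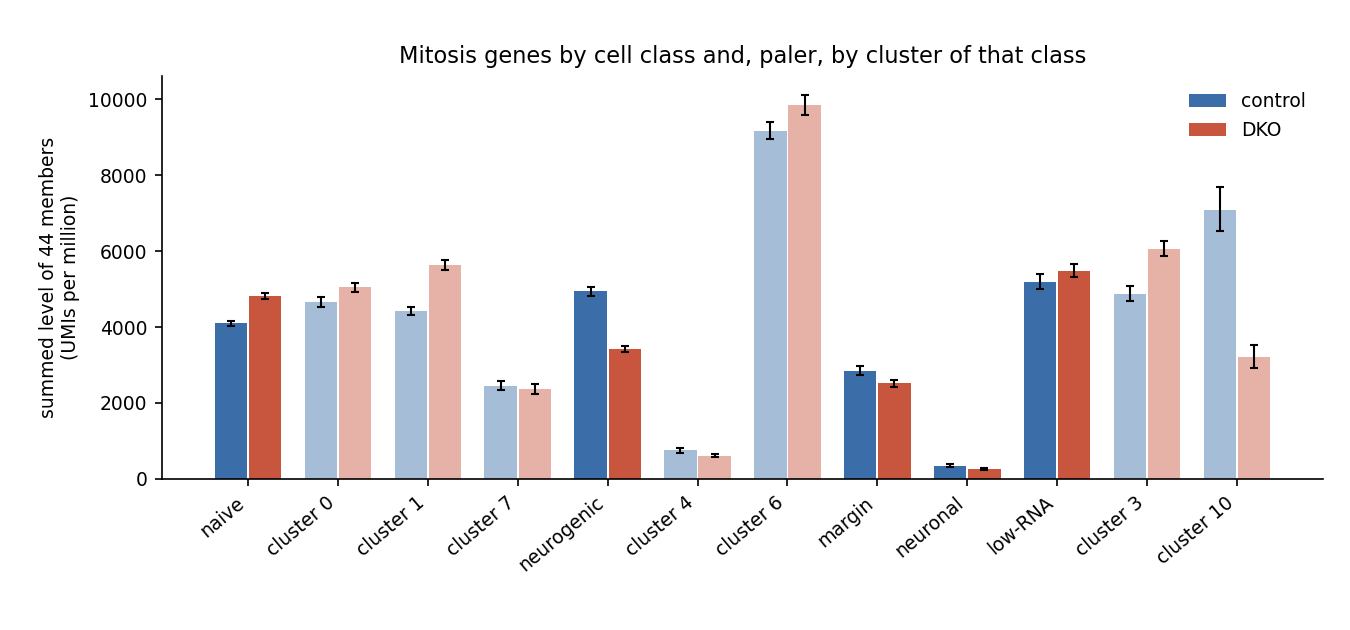
Summed level of the 44 members in counts per 1000000 UMIs (CPM), after thinning to 1000 UMIs per cell, for each cell class and, paler, for the clusters it is made of. Bars give the control (blue) and DKO (red) library and lines the 95% Poisson intervals; naive-like cells stand at 4097 and 4814, and neurogenic-like cells at 4938 and 3414, while cluster 6 is at 9173 and 9851.

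When in the cycle each member was high was read from cells thinned to 4000 UMIs. A cell was called G2/M-high when its UMIs of 50 other G2/M genes, none of them members, reached the 75th percentile of control naive-like cells (13 UMIs), S-high when it was below that and its UMIs of 45 S phase genes reached the median (20 UMIs), and low otherwise. These are ranges of a count, and 106 control naive-like cells lay at the G2/M limit and 119 lay 1 UMI below it. Of 3202 control naive-like cells, 875 (27.3%) were G2/M-high, 1221 (38.1%) S-high and 1106 (34.5%) low. The summed member level was 1799 in low, 2864 in S-high and 8842 in G2/M-high cells, and the G2/M-high cells held 58.5% of all member UMIs.

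All 44 members were higher in G2/M-high than in S-high control naive-like cells, each with an interval above 0, against 12.2% of 7734 genes with at least 100 UMIs, but by very different amounts. The log2 ratio ran from 0.45 to 3.44, with a median of 1.64. At the low end stood Hjurp, the chaperone of the centromeric histone, at 76.8 CPM in S-high and 104.6 in G2/M-high cells, and the condensin subunits Smc2 (309.4 and 439.7) and Smc4 (285.6 and 516.3), which compact chromosomes. For these 3 genes the step from low to S-high cells (log2 ratios of 1.27, 1.52 and 1.22) was larger than that from S-high to G2/M-high cells (0.45, 0.51 and 0.85). Ndc80, a kinetochore subunit, the checkpoint kinase Ttk, Cdk1 and Top2a, the topoisomerase that untangles sister chromosomes, also had larger steps into S-high than into G2/M-high cells: Cdk1 stood at 33.9, 116.7 and 271.1 in low, S-high and G2/M-high cells, and Top2a at 104.2, 359.1 and 853.1.

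At the other end stood genes that act at mitotic entry and exit. Ube2c, the ubiquitin-conjugating enzyme of the APC/C, stood at 84.5 in low, 47.7 in S-high and 516.0 in G2/M-high cells. Plk1, the polo-like kinase, stood at 3.84, 6.96 and 67.1, with 82.2% of its UMIs in G2/M-high cells. Cdc25c, the phosphatase that switches on Cdk1, stood at 7.23, 3.07 and 29.4. In 8 members the level was lower in S-high than in low cells. The interval lay below 0 in 5 of the 37 members with at least 100 UMIs, close to the 13.3% of 7982 genes. Cenpa, the centromeric histone, differed most in this way, with 119.8 in low, 46.1 in S-high and 307.1 in G2/M-high cells. Ccnb2, a B-type cyclin, stood at 59.9, 24.98 and 83.7, and Cdc20, the APC/C activator, at 41.6, 24.4 and 152.6. The low group is defined only by low counts of both lists, so it holds cells of more than one phase.

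**Figure D2:**
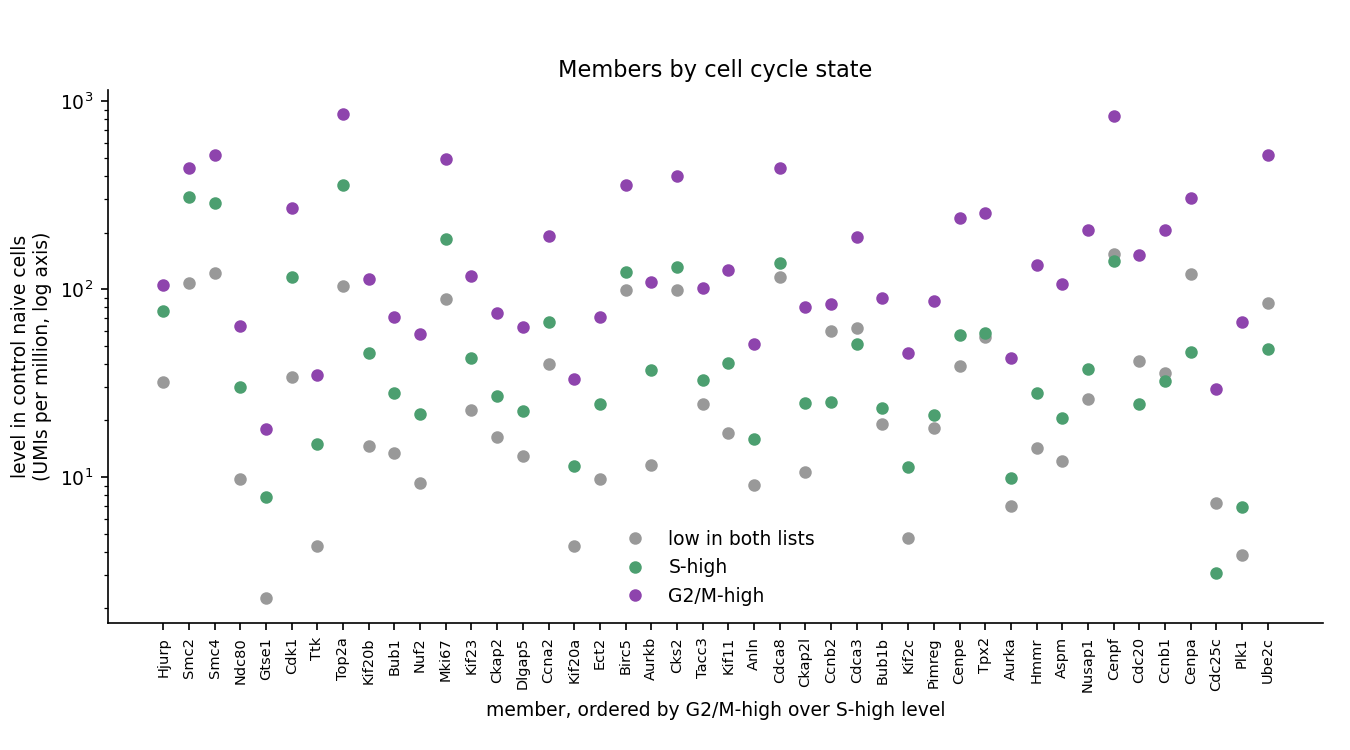
Level of each member in control naive-like cells, in counts per 1000000 UMIs (CPM) on a log axis, for cells low in both lists (grey), S-high (green) and G2/M-high (purple), ordered by the ratio of G2/M-high to S-high. The purple point is above the green for every member; Hjurp at the left differs least and Ube2c at the right most, and grey stands above green for 8 members such as Cenpa and Ube2c.

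Among G2/M-high cells, neurogenic-like cells held more member UMIs than naive-like cells in both libraries. The summed level in control was 8842 in naive-like and 11980 in neurogenic-like G2/M-high cells (95% intervals 8744 to 8941 and 11830 to 12140). In DKO it was 9623 and 13030. The other G2/M genes, which define the group, stood at 4520 and 5488 in control, so the cells compared were not at equal points of the list. Of the 44 members 42 were higher in the neurogenic-like cells of the control library, against 47.9% of 6524 genes with at least 100 UMIs, and 32 (72.7%) had an interval above 0, against 19.7%. The median log2 ratio was 0.43 over the members and -0.02 over all these genes. In the DKO library 43 members were higher, against 47.0% of genes, and the median was 0.45.

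The size of that difference varied between members. Aurka, the kinase of the spindle poles, stood at 42.9 in naive-like and 100.7 in neurogenic-like G2/M-high control cells, a log2 ratio of 1.23, and at 54.8 and 96.8 in DKO. Hmmr, a spindle assembly factor, stood at 134.6 and 311.1 in control (1.21) and at 141.5 and 320.4 in DKO (1.18). Hmmr was also among the 10 genes that lead cluster 6, although it was left out of the clustering and so did not define that cluster. Of the control cluster 6 cells given a cell cycle state, 68.0% were G2/M-high. How much of the rank of Hmmr there goes with the cluster's share of G2/M-high cells was not tested. Cenpe, the kinetochore motor, and Tpx2, which activates Aurora A, were higher by 0.86 and 0.79 in control and by 0.81 and 0.83 in DKO. Birc5, the survivin subunit of the chromosomal passenger complex, went the other way in control, with 360.0 and 310.6 (-0.21, -0.35 to -0.07). In DKO it stood at 353.7 and 318.9, with an interval that holds 0 (-0.15, -0.31 to 0.01). Bub1b, a checkpoint kinase, was at 89.4 and 78.2 in control, and at 94.8 and 97.5 in DKO, both with intervals that hold 0.

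**Figure D3:**
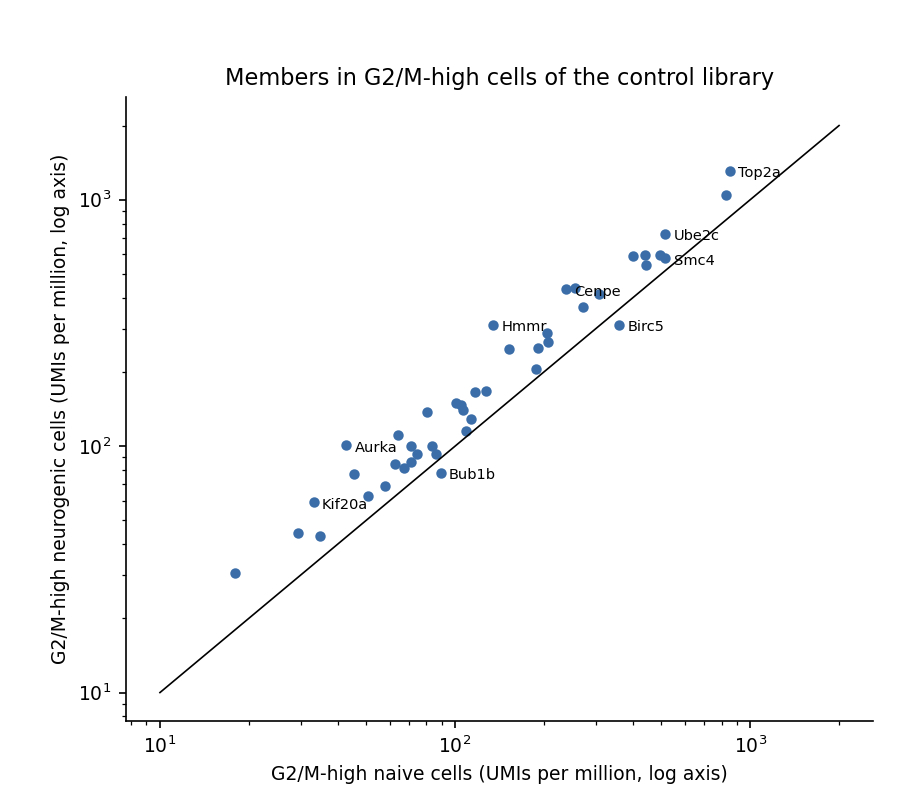
Level of each member in G2/M-high cells of the control library, in counts per 1000000 UMIs (CPM) on log axes, naive-like (horizontal) against neurogenic-like (vertical); the line marks equal levels. 42 of 44 points lie above the line, with Aurka and Hmmr furthest from it, and Birc5 and Bub1b lie below it.

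In naive-like cells the members were a little higher in the DKO than in the control library. The summed level was 4097 in control and 4814 in DKO, a log2 ratio of 0.23 (95% interval 0.20 to 0.27). Cells with 5 or more member UMIs made up 34.9% of control (33.3 to 36.5) and 41.9% of DKO cells (40.2 to 43.7), and without thinning the shares differed by 0.253 percentage points. Of the members, 41 had at least 100 UMIs over both libraries, and 37 of these stood higher and 4 lower in DKO, where 54.9% of all genes stood higher. A level at least 25% above or 20% below control, the same fold in either direction, was taken as past the fold limit. Past it and higher in DKO were 10 of the 41 (24.4%), against 12.6% of all 7071 genes with as many UMIs, and 0 were past it and lower, against 9.35% of all genes. The median log2 ratio was 0.16 over the members, 0.15 over the other G2/M genes, 0.09 over the S phase genes and 0.03 over all genes. For 13 of the 41 members (31.7%) the interval lay above 0, against 14.7% of all genes, and for 0 below it.

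By role, the summed log2 ratio was 0.37 for cytokinesis, 0.33 for the APC/C and related genes and 0.29 for chromosome structure and proliferation, and it was 0.11 for spindle kinases and checkpoint and 0.09 for the chromosomal passenger complex. Top2a stood at 405.7 CPM in control and 551.8 in DKO naive-like cells, a log2 ratio of 0.44 (0.34 to 0.55). Smc4 stood at 304.0 and 336.9 (0.15, 0.02 to 0.27), and Mki67, a coat protein of mitotic chromosomes, at 224.1 and 271.6 (0.28, 0.14 to 0.42). Ube2c stood at 191.7 and 250.9 (0.39, 0.24 to 0.54) and Cdca3, which triggers mitotic entry, at 91.5 and 116.4 (0.35, 0.12 to 0.57).

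Cenpf, a large kinetochore protein, stood at 333.8 and 420.3 in naive-like cells (0.33, 0.22 to 0.45), and Hjurp at 59.6 and 82.5 (0.47, 0.20 to 0.74). Cenpa stood at 143.7 and 150.9, with an interval that holds 0. Of the cytokinesis genes, Anln, the actin-binding protein of the contractile ring, had the highest ratio of the 41 members, at 20.6 and 31.4 (0.61, 0.15 to 1.07). Kif23, a midzone motor, stood at 54.6 and 70.9 (0.38, 0.09 to 0.67), and Ect2, which activates RhoA at the division plane, at 30.7 and 33.9 with an interval that holds 0. Pimreg stood at 36.7 and 48.6 (0.41, 0.06 to 0.76).

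The mitotic kinases had ratios on both sides of the member median, each with an interval that holds 0. Aurka stood at 19.7 in control and 24.2 in DKO naive-like cells (0.30, -0.20 to 0.79), and Aurkb, the kinase of the passenger complex, at 49.8 and 59.0 (0.24, -0.06 to 0.55). Cdk1 stood at 132.3 in control and 134.6 in DKO naive-like cells, with a log2 ratio of 0.02 (-0.17 to 0.22), and Cks2, the small Cdk1-binding subunit, at 195.5 and 224.9 (0.20, 0.05 to 0.36). Plk1 had the lowest ratio, with 82 UMIs in control and 71 in DKO (24.4 and 22.3 CPM; -0.13, -0.61 to 0.34). The spindle motors Kif2c and Kif11 stood at 19.97 and 19.4, and at 61.4 and 59.9, and Bub1b at 41.1 in both. Bub1, its partner at the checkpoint, stood at 35.8 and 43.6 (0.29, -0.08 to 0.65). The passenger subunits Cdca8 (209.5 and 218.3) and Birc5 (182.7 and 192.0) and the spindle gene Tpx2 (110.3 and 126.7) had intervals that hold 0. Nusap1, which bundles spindle microtubules, stood at 81.7 and 102.3 (0.32, 0.09 to 0.56). The other 3 members stayed under 100 UMIs: Cdc25c with 31 and 61, Gtse1 with 24 and 37 and Kif20a with 35 and 44 UMIs in control and DKO.

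The difference was not the same in each naive-like cluster. In cluster 1 the summed level was 4417 in control and 5632 in DKO (log2 ratio 0.35, 0.30 to 0.40), in cluster 0 it was 4661 and 5045 (0.11, 0.06 to 0.17), and in cluster 7 it was 2451 and 2365 (-0.05, -0.16 to 0.06). S phase genes also differed, by 0.31 in cluster 1 and by -0.11 in cluster 0. G2/M-high cells made up 27.3% of control and 33.9% of DKO naive-like cells (25.8 to 28.9 and 32.2 to 35.7), of 3202 and 2905 cells with 4000 UMIs. Without thinning, with the limit set on cells of unequal depth, the direction of this difference turned, to -1.7 percentage points. Within the G2/M-high cells the member level was 8842 and 9623, a log2 ratio of 0.12 (0.10 to 0.14), with 13 of 44 members' intervals above 0 (29.5%, against 14.8% of 7410 genes) and 1 below (2.27%, against 10.6%). Top2a stood at 853.1 and 1069 there, and Ccnb2 at 83.7 and 115.1. The member with its interval below 0 was Ccnb1, at 205.1 and 184.6 (-0.152, -0.303 to -0.002).

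**Figure D4:**
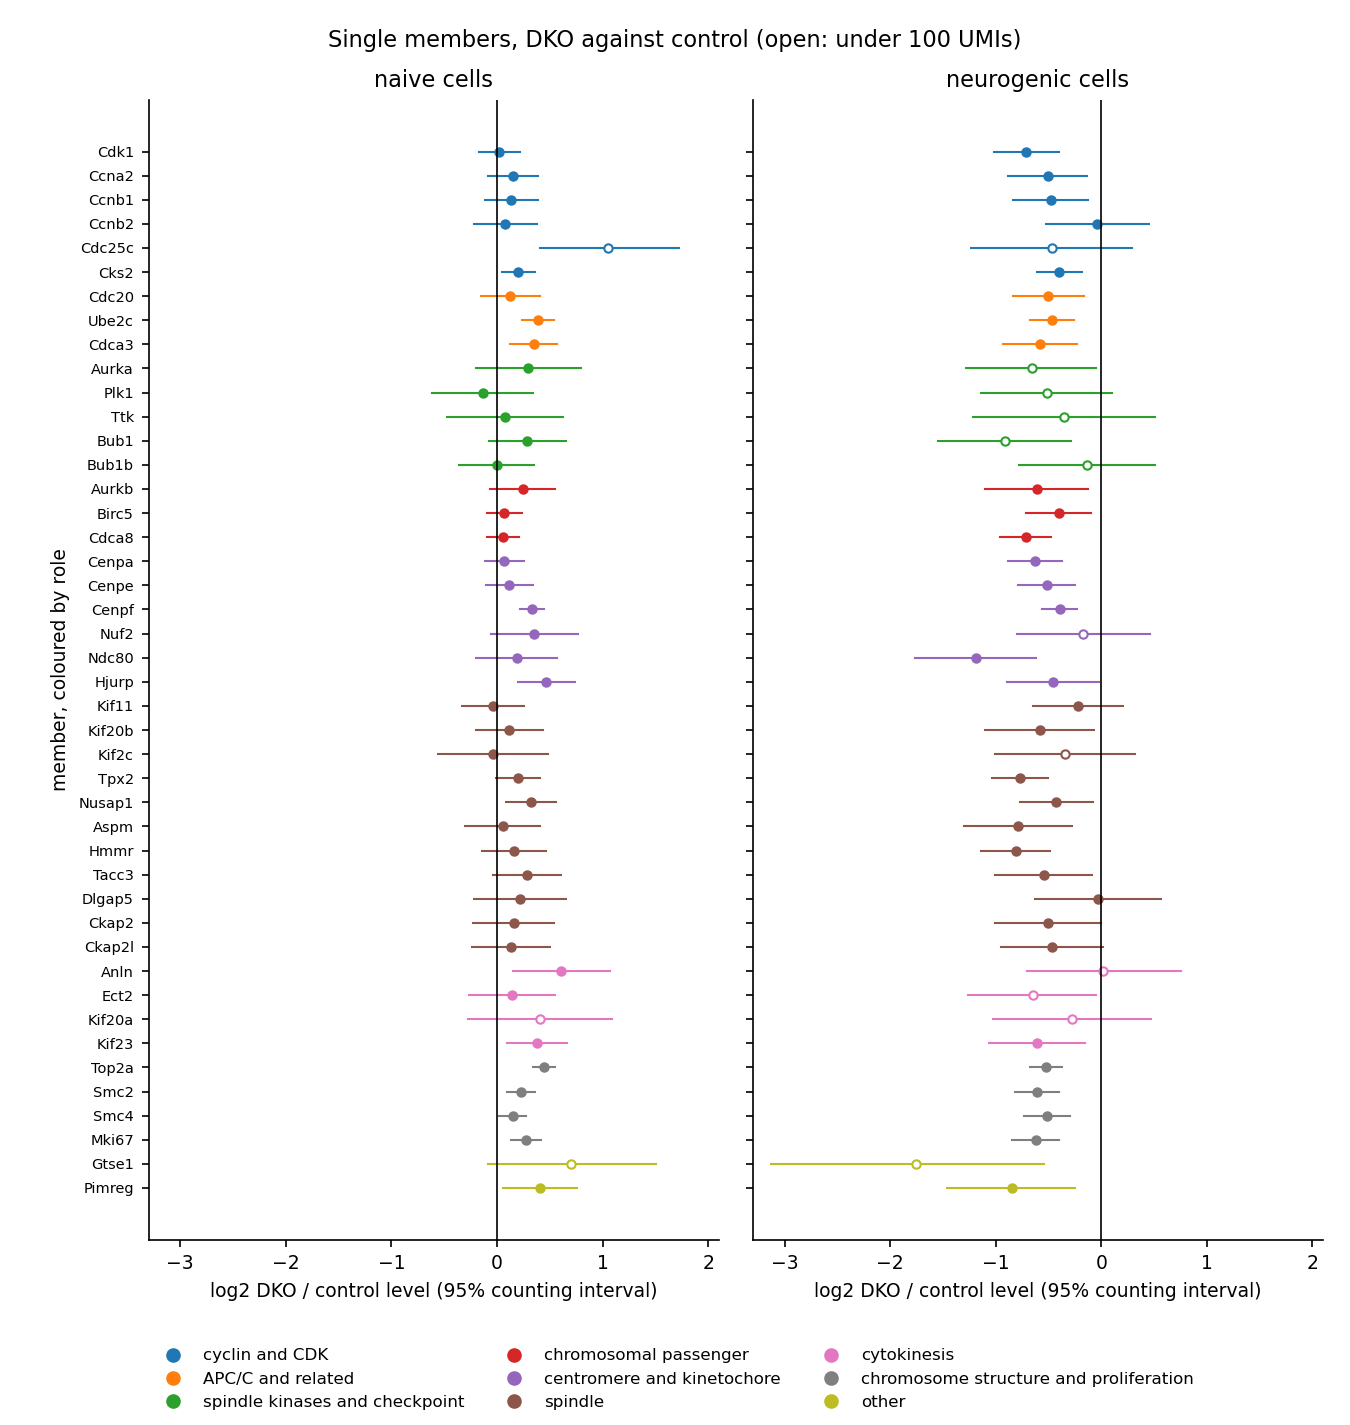
Log2 ratio of the DKO to the control level for each of the 44 members in naive-like (left) and neurogenic-like (right) cells, coloured by role, with 95% counting intervals; open points had under 100 UMIs. Points lie mostly right of 0 in naive-like cells, where Anln leads the filled points at 0.61, and left of 0 in neurogenic-like cells, where Ndc80 is furthest among the filled points at -1.18.

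In neurogenic-like cells the members were lower in the DKO library. The summed level was 4938 in control and 3414 in DKO, a log2 ratio of -0.53 (95% interval -0.58 to -0.48), and cells with 5 or more member UMIs made up 37.9% and 23.5% (35.5 to 40.4 and 21.5 to 25.5). All 32 members with at least 100 UMIs stood lower in DKO, where 49.4% of all genes stood lower. Past the fold limit and lower were 29 of the 32 (90.6%), against 14.0% of 4916 genes with as many UMIs, and 0 were past it and higher, against 15.3%. The intervals of 28 (87.5%) lay below 0, against 12.5% of genes. The median log2 ratio was -0.52 over the members, -0.43 over the other G2/M genes, -0.58 over the S phase genes and 0.00 over all genes.

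This difference went with the make-up of the class. Cluster 4, where the members are low, held 768 of the 1526 control and 1257 of the 1804 DKO neurogenic-like cells. Of its cells with 4000 UMIs, 96.2% in control and 97.6% in DKO were in the low state, so few were S-high or G2/M-high. In cluster 6 alone the summed level was higher in DKO, by a log2 ratio of 0.10 (0.05 to 0.16), and in cluster 4 it was lower by -0.31 (-0.47 to -0.15), at levels where 64.0% of control and 68.9% of DKO cells held no member UMI. In cluster 6 alone 2 of 30 members (6.67%) were past the fold limit and higher, against 13.0% of 2293 genes, and 1 (3.33%) was past it and lower, against 9.51%. G2/M-high cells made up 35.2% of control and 24.8% of DKO neurogenic-like cells (32.7 to 37.8 and 22.5 to 27.3), and within them the member level was 11980 and 13030 (log2 ratio 0.12, 0.09 to 0.15). Of the DKO cells, 504 held fewer than 4000 UMIs and were not in that count, against 110 control cells. Most of these cells, 414 in DKO and 79 in control, were from cluster 4, so the shares count fewer of its DKO cells. In cluster 6 the G2/M-high share was 68.0% in control and 68.5% in DKO.

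The summed level of every role was lower in DKO neurogenic-like cells, and single members differed in how much. Among the 32 with at least 100 UMIs Ndc80 had the lowest ratio, at 51.8 CPM in control and 22.8 in DKO (-1.18, -1.76 to -0.62). Hmmr stood at 128.0 and 73.0 (-0.81, -1.14 to -0.48), Tpx2 at 189.0 and 110.9 (-0.77, -1.04 to -0.50), and Aspm, a spindle pole protein that is mutated in microcephaly, at 53.8 and 31.2 (-0.79, -1.30 to -0.28). Pimreg stood at 40.03 and 22.3 (-0.84, -1.46 to -0.24). Cdk1 stood at 140.4 and 85.8 (-0.71, -1.02 to -0.40), and Cdca8 at 229.7 and 139.9 (-0.72, -0.96 to -0.48).

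Top2a, at 531.5 and 370.1, Ube2c, at 270.3 and 196.2, and Cenpa, at 198.2 and 128.2, lay near the middle of the members in neurogenic-like cells. Cks2 stood at 259.8 and 197.3 (-0.40, -0.61 to -0.19) and Cenpf at 402.2 and 306.0 (-0.39, -0.56 to -0.23). Closest to equal levels were Ccnb2, at 44.6 and 43.5, Dlgap5, a spindle protein, at 30.8 and 30.1, and Kif11, at 62.3 and 53.5, each with an interval that holds 0. Under 100 UMIs in this class were 12 members, among them Bub1 with 59 and 37, Ect2 with 56 and 42, Bub1b with 42 and 45 and Gtse1 with 23 and 8 UMIs in control and DKO, a log2 ratio of -1.76 (-3.13 to -0.55) and the lowest of all 44.

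In margin-like cells the summed level was 2846 in control and 2515 in DKO, a log2 ratio of -0.18 (-0.26 to -0.10). Only 16 members had at least 100 UMIs there. Past the fold limit and lower were 4 of the 16 (25%), against 10.7% of 3491 genes, and 0 were higher, against 16.5%. The 4 were Cdk1, at 95.7 and 67.7, Smc2, at 203.3 and 145.8, Smc4, at 220.1 and 168.9, and Cenpa, at 113.6 and 89.2, whose interval holds 0. Cenpf, at 178.2 and 192.8, and Ccnb1, the main mitotic cyclin, at 45.4 and 56.6, stood higher in DKO with intervals that hold 0. The S phase genes differed more than the members, by -0.42 (-0.48 to -0.35).

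In neuron-like cells the summed level was 345.1 and 258.2 (-0.42, -0.62 to -0.22), and cells with 5 or more member UMIs were 0.857% and 0.141%. Only Smc2 had at least 100 UMIs over both libraries in this class. Below that number, Hjurp went the other way, with 14 and 65 UMIs (1.027, 0.178 to 1.975). Some others, such as Ccna2 and Kif20b, also stood higher in DKO, with intervals that hold 0. Cluster 11, which held 588 DKO cells and 0 control cells and had no class name, stood at 322.0 (277.7 to 371.3), between the DKO and the control neuron-like levels. All retinal cells combined stood at 3635 in control and 2946 in DKO (-0.30, -0.33 to -0.28), with 934 control and 2126 DKO cells in the neuron-like class.

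DKO naive-like cells grouped by the Six3 level of their subcluster differed in member level, but not in a stable way. The DKO cells were clustered on their own, and subclusters with Six3 under 50% of the control naive-like level were called Six3-low. The 1833 Six3-low naive-like cells had a summed member level of 4366 (4271 to 4463), the other 1359 had 5420 (5296 to 5545), and control cells had 4097. The log2 ratio of Six3-low to control was 0.09 (0.05 to 0.13), that of the other DKO cells to control 0.40 (0.36 to 0.44), and that of Six3-low to the other DKO cells -0.31 (-0.36 to -0.27). S phase genes showed a larger gap between Six3-low and other DKO cells (-0.52). The subclusters also differed by cell cycle: of those called Six3-low, one with Six3 at 30.9% had a member level of 7265 and another at 34.1% had 937.6. In cluster 0, which holds 1257 of the Six3-low cells, the Six3-low and other DKO cells stood at 5067 and 4964, a log2 ratio of 0.03. The 2 groups also fell into different clusters. Cluster 7 held 462 Six3-low and 52 other DKO cells, at member levels of 2255 and 3353. Cluster 1 held 114 and 975, at 5202 and 5683. How much of the gap goes with the cluster was not tested.

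Of the 36 members with at least 100 UMIs in the naive-like DKO cells, 32 (88.9%) stood lower in Six3-low than in other DKO cells, against 49.5% of 4791 genes. The ratio of the summed level turned to 0.046 when Six3-low meant under 35%, and to 0.042 with cell cycle genes used for clustering. Of the 36, Birc5 had the lowest ratio, with 182.7 in control, 152.8 in Six3-low and 244.8 in other DKO cells. Mki67 stood at 224.1, 223.3 and 337.0, and Top2a at 405.7, 474.3 and 656.3. Ube2c stood at 191.7, 261.5 and 236.7, above control in both DKO groups. In margin-like cells the summed level was 2268 in Six3-low and 3002 in other DKO cells, against 2846 in control.

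The low-RNA cells held members at levels near those of dividing cells although the cells were shallow. Only 577 of 1211 control and 696 of 1428 DKO cells reached 1000 UMIs, and their medians of mitochondrial UMIs were 0.485% and 0.546%, against 6.21% and 5.28% in naive-like cells. Cluster 3, led by AY036118, Gm42418 and Lars2, stood at 4872 in control and 6067 in DKO (log2 ratio 0.32, 0.24 to 0.39). Cluster 10 has both the neurogenic marker Atoh7 and neuronal markers among its leading genes, and 9.15% of its cells were called doublets. It stood at 7094 and 3217 (-1.14, -1.32 to -0.96), from 85 and 143 cells. The members Ube2c, Nusap1, Cdk1 and Birc5 were among the 10 genes that lead cluster 3.

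Within cluster 3 the members did not keep the ratios they have in naive-like cells. In the control library the log2 ratio of cluster 3 to naive-like cells ran from -1.75 to 1.31, and of the 35 members with at least 100 UMIs 12 had intervals above 0 (34.3%, against 14.6% of 5265 genes) and 6 below (17.1%, against 31.6%). Ube2c stood at 475.6 against 191.7 in naive-like cells, Cks2 at 374.0 against 195.5, and Cdk1 at 241.9 against 132.3. Mki67 stood at 93.5 against 224.1, Aspm at 14.2 against 41.4, and Anln at 6.10 against 20.6, from 3 UMIs. In DKO, Mki67 stood at 90.4 against 271.6 and Ube2c at 569.6 against 250.9.

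The order of the ratios followed transcript length. Across the 44 members, which are not independent replicates, Spearman's rho between the ratio and the longest annotated transcript was -0.61 in control and -0.68 in DKO. The 11 shortest members had a median log2 ratio of 0.69 in control and 0.90 in DKO, and the 11 longest -0.50 and -0.55. The same held over all genes, with rho of -0.61 over 5260 genes in control and -0.59 over 5217 in DKO, so it is not a feature of the members alone. Cenpf, whose longest transcript has 11130 bases, stood at 239.8 in cluster 3 and 333.8 in naive-like cells, and Cks2, with 692 bases, at 374.0 and 195.5.

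**Figure D5:**
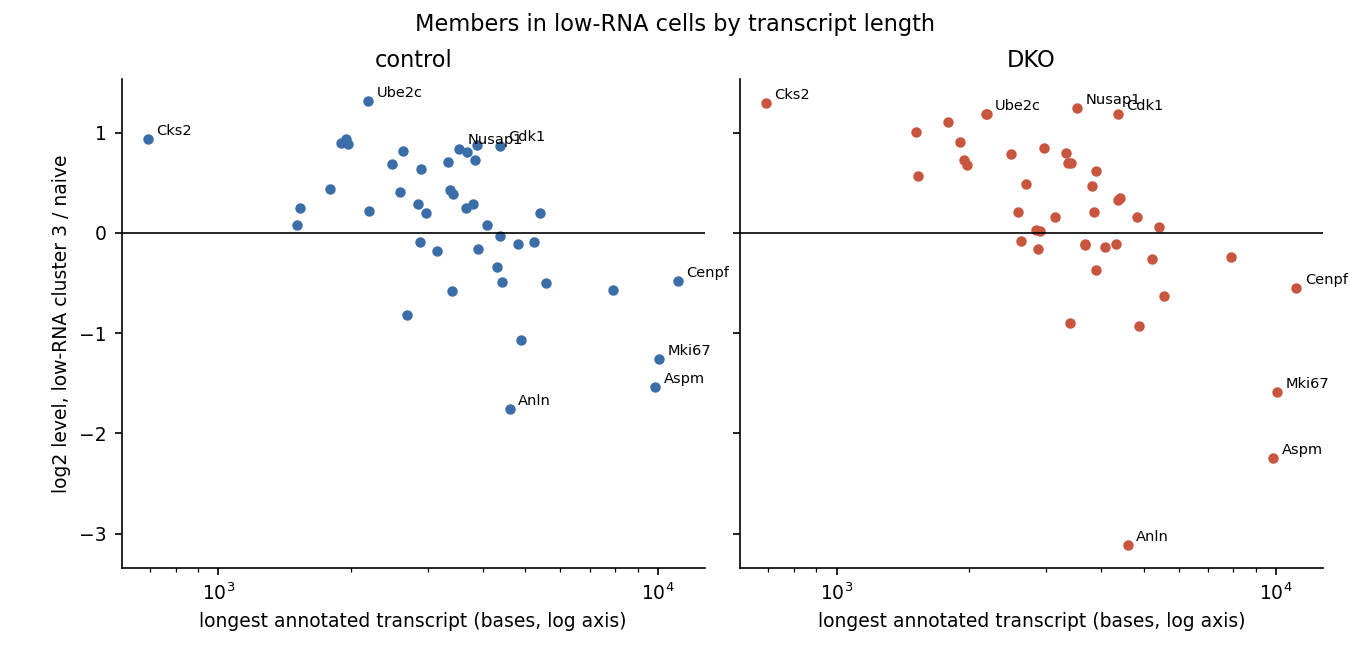
Log2 ratio of the level in low-RNA cluster 3 to that in naive-like cells for each member, against the longest annotated transcript in bases on a log axis, in the control (left) and DKO (right) library. Short genes such as Cks2 and Ube2c lie above 0 and long genes such as Mki67, Aspm and Cenpf below it in both libraries.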

How the data were processed

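Eyecups of 1 control and 1 DKO embryo were profiled by droplet single-cell RNA-seq with 3′ UMIs. Per the labels the authors mapped reads to mm10 with Cell Ranger 3.1.0, and they deposited raw UMI counts per gene and called cell, without normalization. The study's cell filters were applied: over 200 genes, below 6000 genes and a mitochondrial share below 20%. The libraries shared 22 cell barcodes. Libraries were integrated with Seurat 5.3.0 (R 4.3.3; up to 2000 variable genes, 20 dimensions, resolution 0.5), leaving out the members, other cell cycle, histone, haemoglobin, Xist, Tsix and Y-linked genes as features. A cluster took the name of the marker list with the highest mean log2 ratio to the rest, by a rule set after the clusters were seen. At least 75% of the list's markers had to be above the rest, with a mean log2 over 0.3, and at least 3 had to be detected. Low-RNA clusters had medians of UMIs and mitochondrial share under 33.3% of those of all cells. Scrublet (scanpy 1.11.5) called 300 control and 329 DKO cells as doublets at a score of 0.225; these were kept, but 2 clusters of over 50% called doublets were left out.

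Each cell was thinned at random to 1000 UMIs (4000 for cell cycle states), and cells below that were left out. Levels have exact Poisson, ratios exact binomial split and shares exact binomial (Clopper-Pearson) 95% intervals, computed in Python 3.11.15 with scipy 1.17.1 and numpy 2.4.6; these cover counting error only. Members with at least 100 UMIs over both libraries were set against all genes with as many. The calculation of ratios and intervals was checked on simulated counts with known changes. Named with full values are the 2 members of each role with the highest control naive-like level and the 5 lowest and 5 highest ratios in naive-like and in neurogenic-like cells; other members were named after their values were seen. The members, gene lists and comparisons were chosen with earlier results of these data known. The study's bulk RNA-seq was not analysed here.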

Additional observations from a re-analysis of the deposited data

Results flagged for a closer look

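The summed member ratio of DKO to control went in opposite directions in naive-like and neurogenic-like cells, with log2 ratios of 0.233 and -0.533. Within the low-RNA cells it was 0.316 in cluster 3 and -1.141 in cluster 10. With 1 library per genotype neither difference was tested.

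Lens cells lie outside the comparisons above. Their summed member level was 2318 CPM in control and 2924 in DKO, above the level of cluster 9 neurons in the same libraries (292.0 and 240.7).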

How the results depend on the processing

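No paired analysis was possible because there was 1 library in every group, and no replicate was left out for the same reason. Of 150 values under an alternative, 94 lay within the interval of the reported value (or, for counts, within 1.5 times it), 47 moved and 9 had the other direction. Values below are log2 ratios of DKO to control unless stated, and causes were not tested unless a sentence gives the construction. Depth limits the rarer members most.

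The naive-like ratio of the member sum (0.233) kept its direction in all 12 alternatives: 0.391 with cell cycle genes and members used for clustering, 0.284 merged without integration, 0.199 without the 3 members with the most UMIs, 0.193 as the median of single members, 0.114 together with margin-like cells, and, chosen after seeing the data, 0.177 at 500 UMIs. The neurogenic-like ratio (-0.533) was -0.43 without thinning, -0.596 with cell cycle genes, -0.326 at resolution 1, -0.932 merged, and 0.103 in cluster 6 alone, which was added after seeing the data and leaves out cluster 4. The margin-like ratio (-0.178) was -0.338 with cell cycle genes, -0.066 at resolution 1, -0.027 merged and -0.095 as the median. Clusters were named anew in each clustering, so a class did not hold the same cells throughout. Margin-like control cells numbered 68 at resolution 1 and 39 merged, against 837, and both intervals hold 0 (-0.308 to 0.184 and -0.333 to 0.295). Of the 3192 DKO naive-like cells, 1428 were also naive-like when merged. The neuron-like ratio (-0.418) was -0.059 with cell cycle genes (-0.258 to 0.144) and -0.102 merged (-0.354 to 0.155), both with intervals that hold 0, and -0.635 as the median. The low-RNA ratio (0.076) was -0.069 at 2000 UMIs, -0.061 for cells with at least 1000 genes, 0.195 with cell cycle genes, 0.151 merged and 0.316 in cluster 3 alone (added).

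The share of cells with 5 or more member UMIs, DKO minus control, was 7.07 percentage points in naive-like cells, and 0.253 without thinning, where DKO cells hold fewer UMIs, 12.9 with cell cycle genes and 4.07 at 10 or more UMIs. In neurogenic-like cells it was -14.5, and -20.6 without thinning, -18.0 merged, -7.9 at 10 or more UMIs and 0.285 in cluster 6 alone. Members past the fold limit and higher in naive-like cells numbered 10, and 6 at 2000 UMIs, 24 with cell cycle genes and 1 at 1.5-fold; those lower numbered 0, and 1 merged. Members lower in neurogenic-like cells numbered 29, and 17 at resolution 1, 12 at 1.5-fold and 1 in cluster 6 alone, where 2 were higher against 0 in the class.

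The G2/M-high share, DKO minus control, was 6.61 percentage points in naive-like cells, and -1.7 without thinning, where the limit is set on unequal depths, 9.59 with cell cycle genes and 9.78 merged. In neurogenic-like cells it was -10.4, and -14.6 merged and -6.06 at the 90th percentile. Within naive-like G2/M-high cells the ratio (0.122) was 0.225 without thinning, 0.08 at resolution 1 and 0.093 merged. The ratio of Six3-low cells to control (0.092) was 0.145 without thinning, 0.412 with cell cycle genes, -0.365 merged and 0.258 with Six3 under 35%. Their ratio to other DKO cells (-0.312) was -0.231 without thinning, 0.042 with cell cycle genes, -0.241 at resolution 1, -0.73 merged, 0.046 with Six3 under 35% and 0.03 in cluster 0 alone (added).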

Other observations

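Outside the retina, red blood cells held the members at 241.6 CPM in control and 411.7 in DKO, against 345.1 and 258.2 in neuron-like cells. Macrophages, with 54 control and 160 DKO cells, stood at 1579 and 2287. Photoreceptor-like cells stood at 468.1 and 695.7, and amacrine- or horizontal-like cells at 373.0 and 291.7.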
